A study of Homo sapiens with 6 samples.

Results

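The zinc finger genes of chromosome 19 were taken as all symbols made of ZNF, a number and at most 1 further letter that the peak lists place on that chromosome. There were 146 such genes among the 18086 gene symbols of the lists, with start sites between 2.8 and 59.0 Mb (hg19). Each list holds only genes within 20 kb of a peak, so genes without a listed peak were not analysed here. The peak lists are from HL-60 cells, an established human line of promyelocytic leukaemia, either knocked out for JMJD3 (JMJD3 KO) or parental. JMJD3, encoded by KDM6B, is a demethylase of H3K27me3. Chromatin immunoprecipitation and sequencing were done for H3K4me3 and for H3K27me3 with 1 library per genotype and mark, so 4 peak lists were compared. No agent or time point is named, and the sources used here do not say whether the knockout line is 1 clone or several. With 1 library per group, no difference below has a replicate check, no test was possible and no p-value is given.

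Chromosome 19 carries long arrays of zinc finger genes that arose by repeated duplication. Most of their products join an array of C2H2 zinc fingers, which bind DNA, to a KRAB domain, which recruits the corepressor KAP1 (TRIM28) and with it the H3K9 methyltransferase SETDB1 and HP1 proteins. Many of these proteins silence retrotransposons. The gene bodies are known for H3K9me3 in many cell types, whereas H3K4me3 marks active or poised promoters and H3K27me3 marks chromatin repressed by Polycomb complexes.

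The lists give positions of called regions, without read counts or heights of peaks. Depth is therefore unknown for all 4 libraries, and whether it differed between genotypes could not be examined. The JMJD3 KO H3K4me3 list held 24943 peaks with a median width of 260 bp, and the parental list held 33470 peaks with a median of 359 bp. For H3K27me3 the lists held 3234 peaks in JMJD3 KO cells and 3578 peaks in parental cells. The cells carried marks of their labelled lineage: MPO, PRTN3, CD33, SPI1 and CEBPA, 5 of 7 myeloid markers, had promoter H3K4me3 in both genotypes, and AZU1 and ELANE had it in neither.

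Most of the listed zinc finger genes of chromosome 19 carried H3K4me3 at the promoter in both genotypes, and none had a listed H3K27me3 peak there. A gene was called marked when the centre of a peak lay at most 5 kb from one of its transcription start sites (TSSs) or when a peak spanned the TSS. By this rule 114 of the 146 genes were marked with H3K4me3 in JMJD3 KO cells (78.1%, Wilson 95% interval 70.7 to 84.0, counting error only) and 127 in parental cells (87.0%, 80.6 to 91.5). Over all gene symbols 62.9% were marked in JMJD3 KO cells and 71.3% in parental cells. Marking in both genotypes was found for 109 zinc finger genes, marking in JMJD3 KO cells only for 5, marking in parental cells only for 18 and no marking for 14. As shares of the 146 genes, 74.7% were marked in both, 3.42% (1.47 to 7.77) in JMJD3 KO cells only and 12.3% (7.94 to 18.6) in parental cells only. Over all gene symbols 61.9% were marked in both, 0.984% in JMJD3 KO cells only and 9.45% in parental cells only. Genes marked in parental cells only thus outnumbered those marked in JMJD3 KO cells only, in the family as among all genes.

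The 222 ZNF-numbered genes of other chromosomes had nearly the same shares. Of these, 77.5% were marked in JMJD3 KO cells and 86.0% in parental cells, with 1.8% marked in JMJD3 KO cells only and 10.4% in parental cells only. Among the 1072 other genes of chromosome 19, 64.6% were marked in JMJD3 KO cells and 74.1% in parental cells. The interval of that share was 61.7 to 67.5 in JMJD3 KO cells and 71.4 to 76.6 in parental cells. The zinc finger genes of chromosome 19 lay above both intervals, whereas their own intervals overlapped those of zinc finger genes elsewhere. All these shares, also those over all gene symbols, are of genes listed through a peak of either mark within 20 kb. A set with more genes listed through H3K27me3 peaks alone would have a lower H3K4me3 share, and how far this shaped the differences was not tested.

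**Figure D1:**
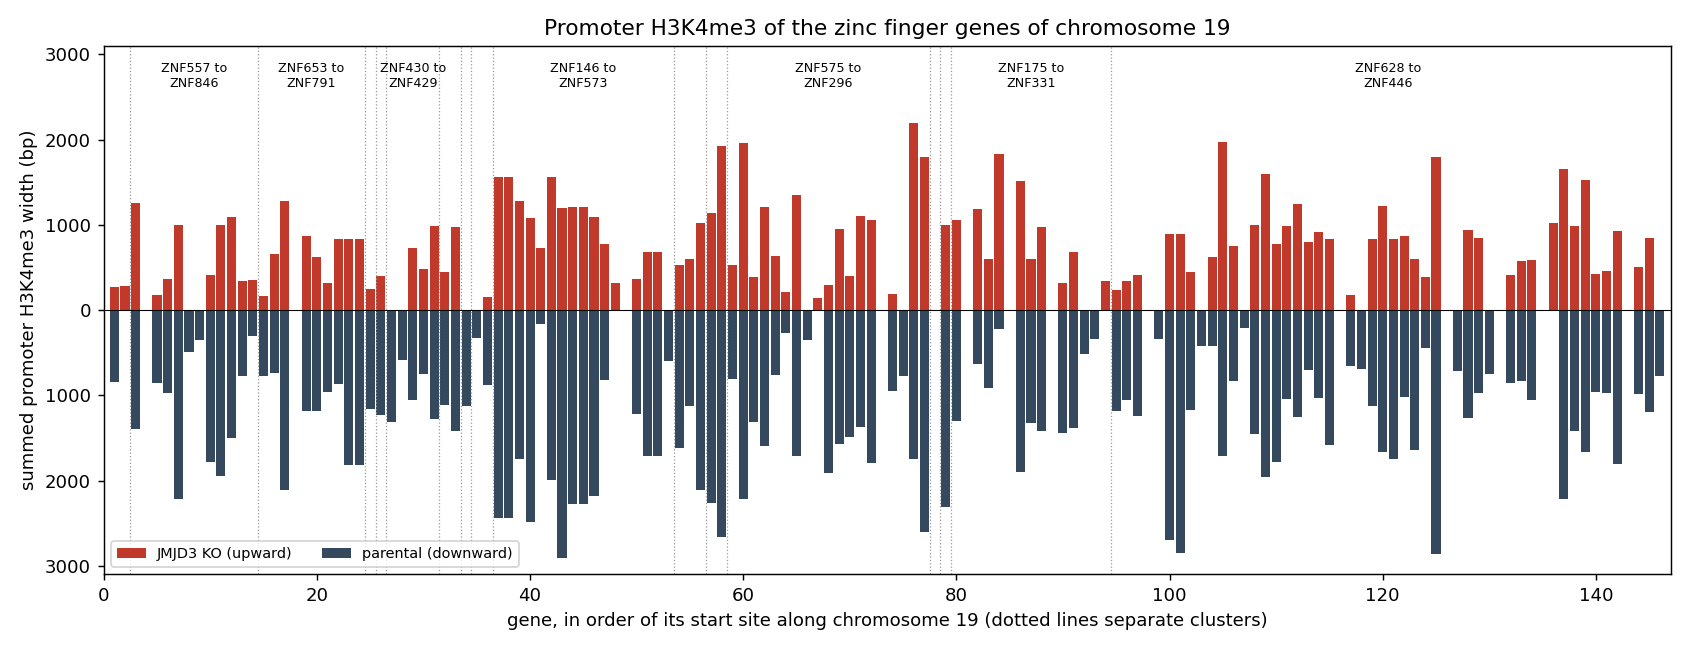
Summed width of promoter H3K4me3 peaks (bp) for each of the 146 zinc finger genes in order along chromosome 19, with JMJD3 KO bars drawn upward and parental bars downward from 0. Dotted lines separate clusters, and clusters of at least 5 genes carry the names of their first and last gene. Bars of parental cells are longer for most genes, and a gap on one side alone marks a gene with promoter peaks in 1 genotype only.

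The amount of promoter called as marked was compared by adding up the widths of the distinct promoter peaks of each gene. Width measures the extent of the called regions and not the amount of the mark. Marked zinc finger genes had a median summed width of 831.5 bp in JMJD3 KO cells (146 to 2198 bp) and of 1223 bp in parental cells (159 to 2913 bp). Over all marked genes the medians were 810 bp in JMJD3 KO cells and 1552 bp in parental cells. The zinc finger genes were therefore close to the typical gene in JMJD3 KO cells and below it in parental cells.

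For the 109 genes marked in both genotypes, log2 ratios of width, JMJD3 KO over parental, had a median of -0.72 (quartiles -1.29 and -0.35). The median was -0.94 for the 168 ZNF-numbered genes of other chromosomes marked in both, -0.98 for the 681 other genes of chromosome 19 and -1.01 for all 11190 genes. A log2 ratio of at most -1, a 2-fold narrower region in JMJD3 KO cells, was reached by 43 zinc finger genes (39.4%), against 50.6% of all genes marked in both. Wider regions in JMJD3 KO cells were found for 8 genes (7.34%), against 4.05% of all genes, and a ratio of at least 1 for 2 genes (1.83%), against 0.384%. The ratio also varied with the width in parental cells, in which the sets differed. Among genes below 1000 bp in parental cells, the median ratio was -0.60 for 31 zinc finger genes and -0.75 for 2050 genes in all. Between 1000 and 2000 bp it was -0.77 for 59 zinc finger genes and -1.05 for 4898 genes in all. From 2000 bp upward it was -0.92 for 19 zinc finger genes and -1.05 for 4242 genes in all. In each of these 3 width classes, chosen after the values were seen, the median zinc finger gene of chromosome 19 had a ratio closer to 0 than the median gene. For ZNF-numbered genes of other chromosomes the medians in the same classes were -0.69, -1.13 and -0.82, so the widest class had a ratio closer to 0 there than on chromosome 19.

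**Figure D2:**
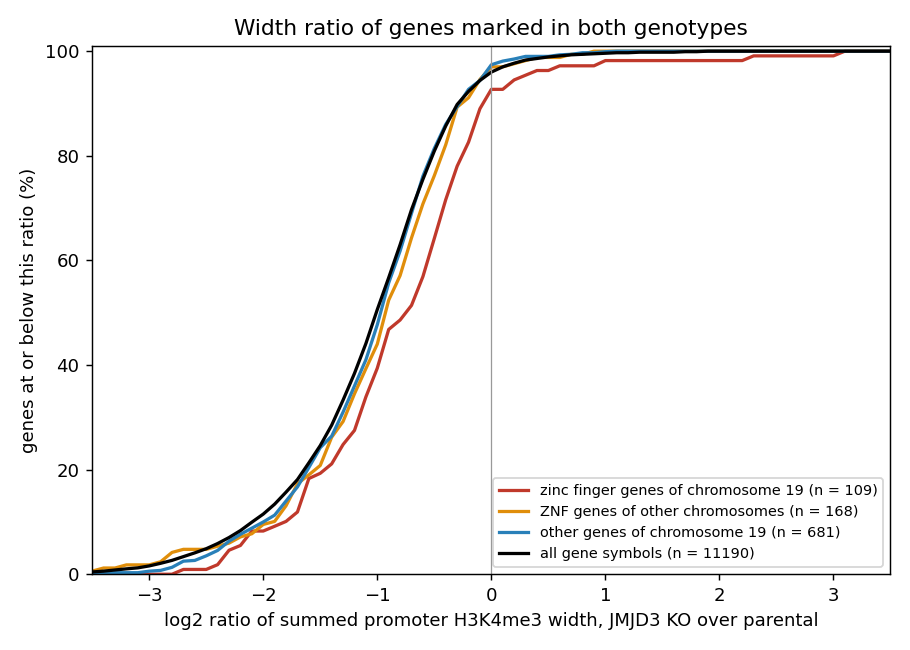
Cumulative share (%) of genes with promoter H3K4me3 in both genotypes at or below each log2 ratio of summed width, JMJD3 KO over parental, for 4 sets of genes. The curve of the zinc finger genes of chromosome 19 (n = 109) lies to the right of that of all gene symbols (n = 11190) over most of its range, with medians of -0.72 and -1.01.

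The largest excess of width in JMJD3 KO cells was at ZNF350, which encodes ZBRK1, a KRAB repressor known to act with BRCA1. In JMJD3 KO cells it had 6 promoter peaks adding up to 1827 bp, against 1 peak of 221 bp in parental cells, a log2 ratio of 3.05. The widest JMJD3 KO peak ran from 52489349 to 52490152 on chromosome 19 and spanned the TSS of NM_021632 at 52490079. The parental peak ran from 52488961 to 52489181, with its centre -1009 bp from the TSS in genome direction. The nearest TSS of another gene, that of ZNF615, lay 21404 bp away, so these peaks were not at a promoter shared with another listed gene. Within 1 kb of the TSS, or with peaks of at least 300 bp only, ZNF350 was marked in JMJD3 KO cells alone, with 1220 and 804 bp there.

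ZNF329 was the widest gene marked in JMJD3 KO cells only, with 4 peaks of 1020 bp. They ran from 58661387 to 58662847 and flanked the TSS of NM_024620 at 58662148 without covering it, with 2 peaks on each side and widths between 243 and 269 bp. No parental H3K4me3 peak was listed within 20 kb of this TSS. The next gene, ZNF274, whose product recruits SETDB1 to zinc finger gene bodies, lies 32207 bp away and was named after its values were seen. It was marked in both genotypes, with 1650 bp in JMJD3 KO cells and 2220 bp in parental cells (-0.43).

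ZNF461 had 731 bp in 3 JMJD3 KO peaks and 159 bp in 1 parental peak (2.20). With peaks of at least 300 bp only, ZNF461 was marked in neither genotype. ZNF649, a KRAB repressor known to bind LINE-1 elements, had 1185 bp in JMJD3 KO cells and 628 bp in parental cells (0.92), and it lies in the same cluster as ZNF350. The neighbours ZNF582 and ZNF583 were both wider in JMJD3 KO cells. ZNF582 had 626 bp in JMJD3 KO cells and 419 bp in parental cells (0.58), and the TSS of its antisense gene ZNF582-AS1 lies 155 bp away. ZNF583 had 1971 bp in JMJD3 KO cells, of which 1 peak spanning the TSS took 1779 bp, and 1715 bp from 3 peaks in parental cells (0.20). The other 3 genes wider in JMJD3 KO cells were ZNF180 (0.33), ZNF548 (0.18) and ZNF846 (0.17). In the same order their differences were 448, 91 and 39 bp, and within 1 kb of the TSS those of ZNF180 and ZNF548 had the opposite sign (-39 and -102 bp).

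The other 4 genes marked in JMJD3 KO cells only had narrow regions. ZNF331, an imprinted gene rearranged in thyroid adenomas, had 2 peaks of 345 bp at 300 and 626 bp from a TSS. ZNF585B had 2 peaks of 320 bp on either side of its TSS. ZNF77 rested on 1 peak of 279 bp at 4868 bp from its TSS, close to the limit of the window, and ZNF223 on 1 peak of 146 bp at -1534 bp. Within 1 kb ZNF77 and ZNF223 were unmarked in both genotypes, and with a window of 10 kb ZNF77 was marked in both and narrower in JMJD3 KO cells, by a difference of -178 bp. With that window ZNF585B was also marked in both, with a difference of 35 bp. None of the 5 genes kept this state with peaks of at least 300 bp, since every one of their peaks was narrower than that.

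Of the genes marked in parental cells only, ZNF430 was the widest, with 1316 bp in 4 peaks running from 21203107 to 21205165 around the TSS of NM_025189 at 21203425. No JMJD3 KO peak was listed within 20 kb of it. ZNF507 had 1120 bp in 2 parental peaks, the wider from 32836933 to 32837668. Then came ZNF229 with 770 bp, ZNF446 with 768 bp, ZNF552 with 754 bp, ZNF671 with 720 bp, ZNF773 with 691 bp and ZNF573 with 593 bp, all in parental cells. The remaining 10 genes had between 206 bp (ZNF264) and 581 bp (ZNF714). Genes marked in parental cells only had a median width of 546.5 bp there, against 1327 bp for the genes marked in both. For ZNF552 a JMJD3 KO peak lay 5011 bp from the TSS, the distance nearest to the limit from outside, while the nearest from inside was 4911 bp, for a parental peak of ZNF699. With a window of 10 kb ZNF552 and ZNF446 were marked in both genotypes, narrower in JMJD3 KO cells by differences of -1303 and -1122 bp.

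The lowest ratio among genes marked in both was that of ZNF224, a KRAB repressor of the aldolase A gene. It had 1 peak of 291 bp in JMJD3 KO cells, from 44598627 to 44598917, against 1911 bp in 2 parental peaks, the wider from 44598533 to 44599994 (-2.72). The JMJD3 KO peak lay inside the wider parental peak. ZNF792 had 158 bp in JMJD3 KO cells and 878 bp in parental cells (-2.47). ZNF628 and ZNF414 followed at -2.32 each, with 238 and 172 bp in JMJD3 KO cells against 1187 and 857 bp in parental cells. ZNF235 (-2.31), ZNF333 (-2.27), ZNF766 (-2.19) and ZNF653 (-2.17) had between 171 and 316 bp in JMJD3 KO cells and between 770 and 1441 bp in parental cells. Each of these 8 genes had 1 promoter peak in JMJD3 KO cells, where parental cells had 2 to 4. With peaks of at least 300 bp, ZNF224, ZNF235, ZNF333, ZNF414, ZNF628 and ZNF653 were marked in parental cells only, and ZNF792 in neither genotype.

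**Figure D3:**
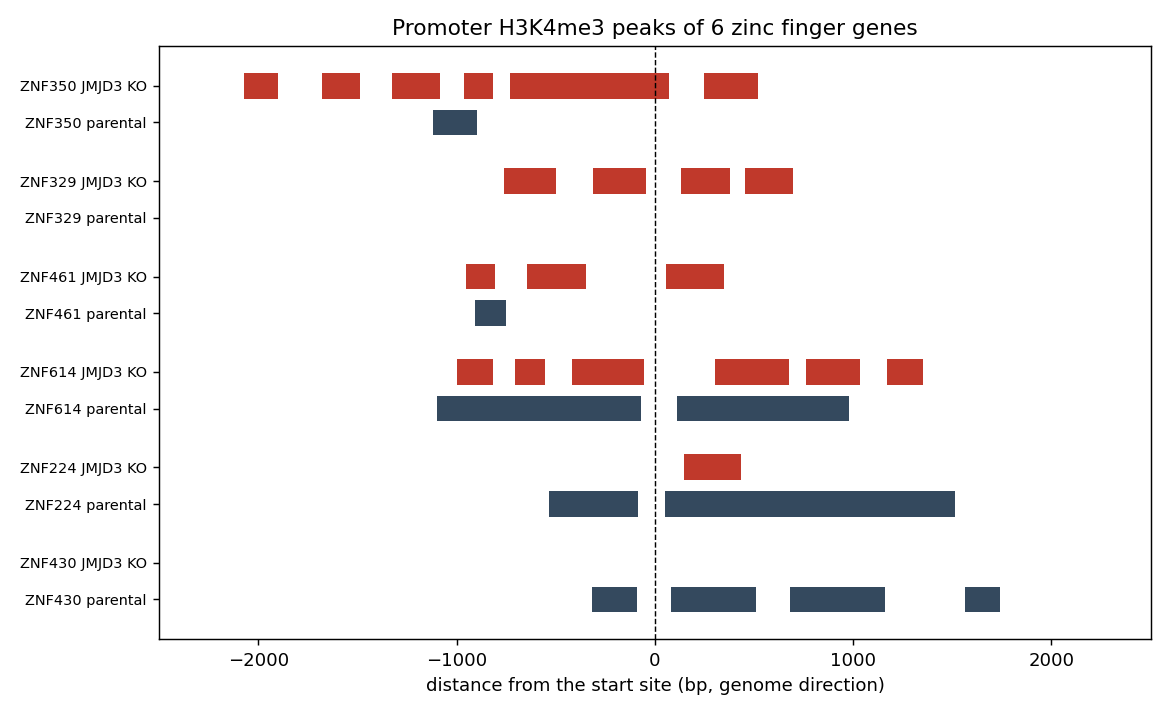
Promoter H3K4me3 peaks of 6 zinc finger genes, drawn to scale as bars against the distance from the TSS (bp, genome direction), with the JMJD3 KO row above the parental row of each gene. ZNF350, ZNF329 and ZNF461 have more bars in JMJD3 KO cells, ZNF614 has 6 bars in JMJD3 KO cells where parental cells have 2 longer ones, ZNF224 has 1 bar in JMJD3 KO cells, and ZNF430 has bars in parental cells only.

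The broadest regions in the sum of both genotypes were those of ZNF551, ZNF526, ZNF296, ZNF576, ZNF850 and ZNF146. ZNF551 had 1797 bp in JMJD3 KO cells and 2860 bp in parental cells (-0.67), where a single peak of 2396 bp spanned the TSS. In JMJD3 KO cells its 3 peaks lay on one side of the TSS. ZNF526 had 1931 bp in JMJD3 KO cells and 2666 bp in parental cells (-0.47), ZNF296 had 1801 bp in JMJD3 KO cells and 2606 bp in parental cells (-0.53), and ZNF576 had 1955 bp in JMJD3 KO cells and 2215 bp in parental cells (-0.18). ZNF850 had 1195 bp in JMJD3 KO cells and 2913 bp in parental cells (-1.29), the widest value of the family. ZNF146, which encodes a protein made almost wholly of zinc fingers, had 1562 bp in JMJD3 KO cells and 2438 bp in parental cells (-0.64) at a promoter it shares with ZNF565. ZNF526 lies 187 bp from the TSS of DEDD2, ZNF576 256 bp from that of IRGQ and ZNF850 303 bp from that of LOC728485, so their regions cannot be assigned to 1 gene. Counted for the nearest gene only, the difference was -35 bp in place of -735 bp for ZNF526, -47 bp in place of -260 bp for ZNF576 and -1173 bp in place of -1718 bp for ZNF850. For ZNF146 it was -155 bp in place of -876 bp.

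**Figure D4:**
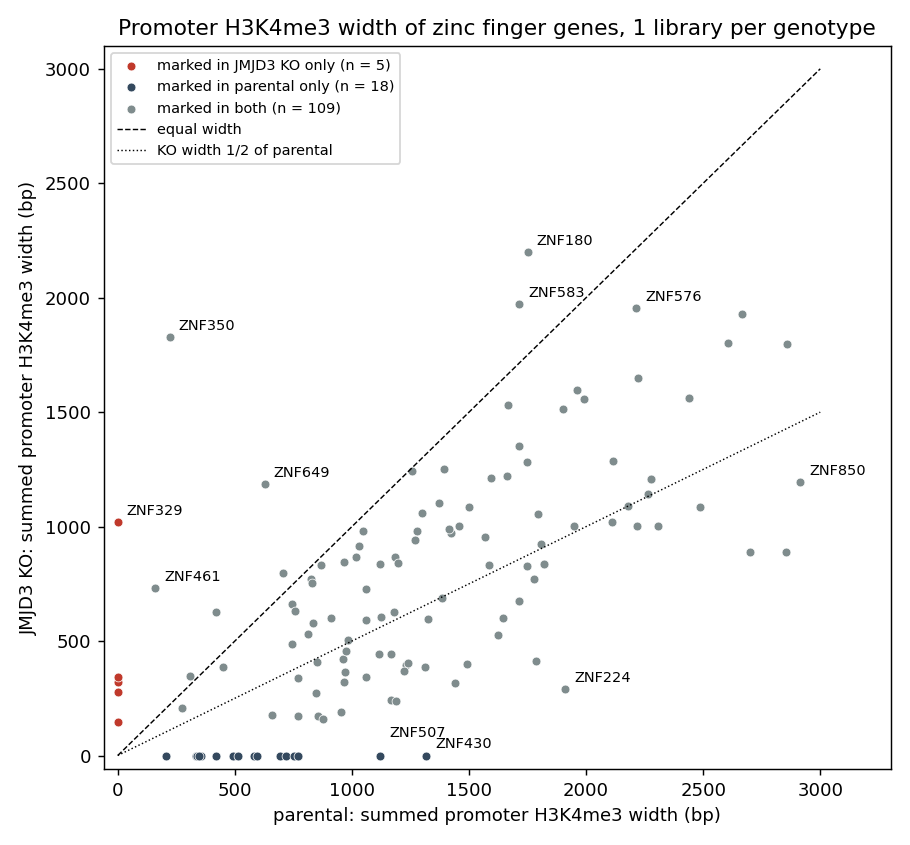
Summed promoter H3K4me3 width (bp) of each zinc finger gene marked in at least 1 genotype, with JMJD3 KO cells on the vertical axis and parental cells on the horizontal axis. Of the 109 genes marked in both, 8 lie above the dashed line of equal width and 43 lie on or below the dotted line of a 2-fold difference; genes at 0 on an axis have no promoter peak in that genotype.

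Some regions that were narrower in sum held more peaks in JMJD3 KO cells. The 109 genes marked in both had a mean of 2.46 promoter peaks in JMJD3 KO cells and 2.69 in parental cells. More peaks in JMJD3 KO cells than in parental cells were listed for 34 of them (31.2%), against 24.6% of all genes marked in both, and 30 of these 34 were narrower in sum. ZNF614 was one, with 1512 bp in 6 JMJD3 KO peaks and 1902 bp in 2 parental peaks. It was named after its values were seen. Distinct promoter peaks of the zinc finger genes numbered 267 in JMJD3 KO cells, with a median width of 272 bp, and 297 in parental cells, with a median of 352 bp. Of the JMJD3 KO peaks 83.1% (78.2 to 87.2) overlapped a parental peak by at least 1 bp, against 91.2% of the promoter peaks of all genes. Of the parental peaks 57.2% (51.6 to 62.7) overlapped a JMJD3 KO peak, against 55.8% of those of all genes.

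H3K4me3 flanked the TSS in both genotypes and dipped over it. At the TSS itself, 10.1% of the 109 genes marked in both had a peak in JMJD3 KO cells and 20.2% in parental cells. The lowest TSS coordinate stood for a gene with several, and distances follow the genome and not the direction of transcription. On the side of lower coordinates the share was highest at -400 bp, with 38.5% in JMJD3 KO cells and 59.6% in parental cells. On the other side it was highest at 350 bp in JMJD3 KO cells, with 48.6%, and at 200 bp in parental cells, with 70.6%. At 2000 bp the shares were 1.83% in JMJD3 KO cells and 6.42% in parental cells, and at -2000 bp they were 1.83% in JMJD3 KO cells and 0.917% in parental cells. Among other genes of chromosome 19 marked in both, the share at 2000 bp was 6.61% in JMJD3 KO cells and 14.0% in parental cells, and the highest shares were lower, with 33.8% in JMJD3 KO cells and 53.2% in parental cells on the side of higher coordinates. The maxima were thus higher and the shares at 2 kb lower for the zinc finger genes, but not the shares at every distance. At the TSS the share in parental cells was 20.6% for the other genes of chromosome 19, and at -750 bp the share in JMJD3 KO cells was 20.2% for the zinc finger genes and 24.8% for those other genes. Counting every TSS of a gene, a peak spanned a TSS in 13 of the 146 zinc finger genes in JMJD3 KO cells (8.9%) and in 27 in parental cells (18.5%), against 6.2% of all gene symbols in JMJD3 KO cells and 17.2% in parental cells.

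**Figure D5:**
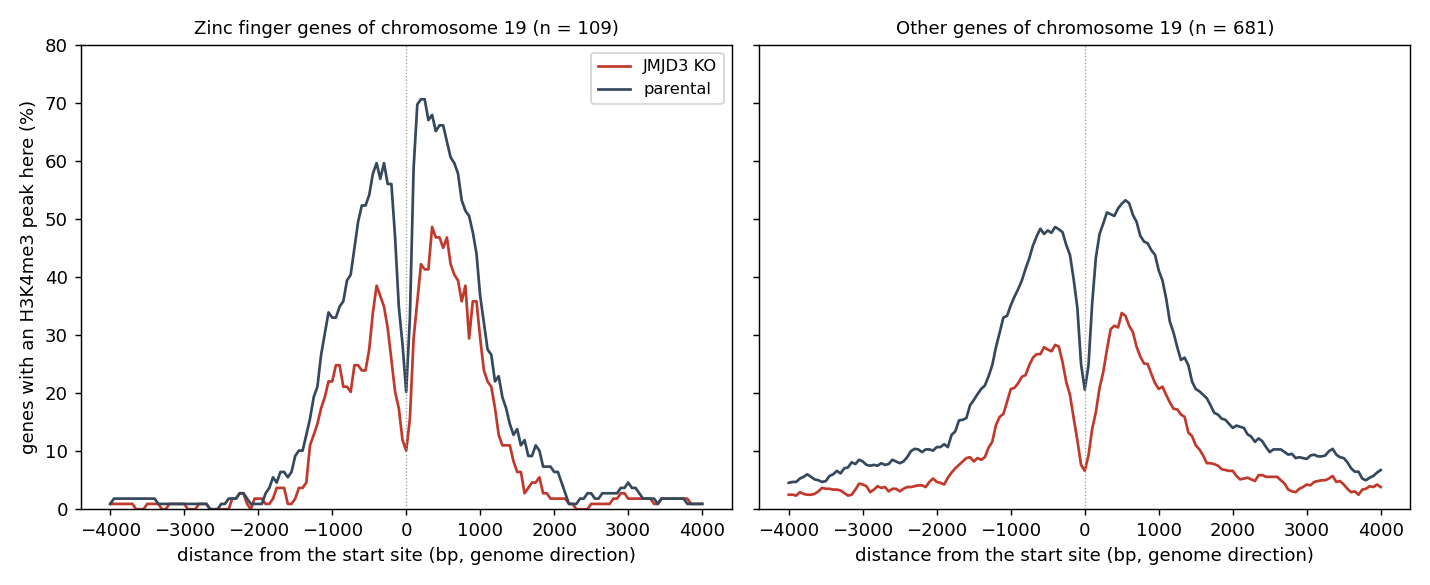
Share (%) of genes marked in both genotypes that have an H3K4me3 peak at each distance from the TSS (bp, genome direction), for zinc finger genes of chromosome 19 (left, n = 109) and other genes of chromosome 19 (right, n = 681). JMJD3 KO cells lie below parental cells at all plotted distances within 1 kb, and both curves dip at the TSS, to 10.1% in JMJD3 KO cells and 20.2% in parental cells among the zinc finger genes.

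Promoter sequences are shown for the 3 genes with the largest excess of width in JMJD3 KO cells, the gene with the lowest ratio, the widest gene marked in parental cells only, and ZNF154 as an unmarked gene whose promoter is known to be hypermethylated in tumours. They are RefSeq promoters of GRCh38.p14, from 250 bases before to 50 after the gene's start, and are written 5′ to 3′ on the strand of the gene with each CpG in capitals. The RefSeq start can be that of another transcript than the one in the peak lists, which are in hg19.
ZNF350: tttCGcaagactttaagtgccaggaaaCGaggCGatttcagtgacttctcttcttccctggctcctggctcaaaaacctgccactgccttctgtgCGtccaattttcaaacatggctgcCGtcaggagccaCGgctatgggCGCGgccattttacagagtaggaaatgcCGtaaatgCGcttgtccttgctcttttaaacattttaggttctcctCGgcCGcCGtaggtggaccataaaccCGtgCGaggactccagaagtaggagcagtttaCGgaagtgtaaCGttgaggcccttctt
ZNF329: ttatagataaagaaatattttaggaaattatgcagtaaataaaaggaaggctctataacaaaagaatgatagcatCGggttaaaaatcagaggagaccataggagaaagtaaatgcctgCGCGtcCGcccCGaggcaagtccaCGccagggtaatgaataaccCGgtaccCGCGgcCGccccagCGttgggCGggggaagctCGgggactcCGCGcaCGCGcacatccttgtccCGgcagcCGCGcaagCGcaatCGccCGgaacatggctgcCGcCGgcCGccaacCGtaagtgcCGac
ZNF461: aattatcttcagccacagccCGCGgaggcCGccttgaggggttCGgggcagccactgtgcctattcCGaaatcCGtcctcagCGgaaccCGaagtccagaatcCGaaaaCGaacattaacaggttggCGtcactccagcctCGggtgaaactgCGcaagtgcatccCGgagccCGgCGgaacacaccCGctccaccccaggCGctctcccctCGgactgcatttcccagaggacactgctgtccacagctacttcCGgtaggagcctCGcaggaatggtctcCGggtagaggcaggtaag
ZNF224: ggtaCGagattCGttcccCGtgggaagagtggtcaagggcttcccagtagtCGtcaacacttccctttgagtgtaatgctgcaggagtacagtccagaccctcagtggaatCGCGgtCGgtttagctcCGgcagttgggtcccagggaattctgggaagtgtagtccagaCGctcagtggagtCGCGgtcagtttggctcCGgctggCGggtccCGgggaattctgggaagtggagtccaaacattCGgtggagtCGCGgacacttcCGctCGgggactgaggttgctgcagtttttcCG
ZNF430: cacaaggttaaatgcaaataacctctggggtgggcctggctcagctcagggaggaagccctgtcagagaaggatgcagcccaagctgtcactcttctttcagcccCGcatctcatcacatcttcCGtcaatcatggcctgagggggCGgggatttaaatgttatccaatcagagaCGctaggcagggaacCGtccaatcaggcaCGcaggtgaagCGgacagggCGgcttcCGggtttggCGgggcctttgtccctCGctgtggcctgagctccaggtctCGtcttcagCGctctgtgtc
ZNF154: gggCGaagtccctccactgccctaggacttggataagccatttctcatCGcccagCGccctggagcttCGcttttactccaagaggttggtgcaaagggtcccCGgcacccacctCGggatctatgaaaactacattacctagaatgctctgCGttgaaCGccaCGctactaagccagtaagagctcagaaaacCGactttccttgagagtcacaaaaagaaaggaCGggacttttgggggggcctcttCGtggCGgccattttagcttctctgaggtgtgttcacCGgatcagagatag

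These promoters span chr19:51986791-51987090 for ZNF350 (minus strand), chr19:58150740-58151039 for ZNF329 (minus), chr19:36666788-36667087 for ZNF461 (minus), chr19:44094111-44094410 for ZNF224 (plus), chr19:21020407-21020706 for ZNF430 (plus) and chr19:57709155-57709454 for ZNF154 (minus). ZNF329 held 28 CpGs in its 300 bases, ZNF461 22, ZNF224 20, ZNF350 17, ZNF154 14 and ZNF430 13. The 3 genes with an excess of width in JMJD3 KO cells thus held 17 to 28 CpGs, and ZNF224 and ZNF430 held 20 and 13. Of the 146 zinc finger genes 131 matched a RefSeq promoter by symbol. These held a median of 22 CpGs (quartiles 16 and 26, range 6 to 40), against 14 (quartiles 3 and 28) over 27305 promoters of genes of any type. By state the medians were 20.5 CpGs for 4 genes marked in JMJD3 KO cells only, 23 for 15 marked in parental cells only, 21.5 for 100 marked in both and 18 for 12 marked in neither.

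Short motifs were searched on both strands of the same 300 bases. CCGGAAG, the core of ETS factor sites, was present in 42.7% of the zinc finger promoters and 10.7% of all promoters. AAGATGG, found in YY1 sites, was present in 11.5% of the zinc finger promoters and 6.06% of all promoters, and it can overlap CCGGAAG by its first 3 letters. The CCAAT box, CCAAT, was present in 50.4% of the zinc finger promoters and 35.7% of all promoters. The GC box, GGGCGG, was present in 58.0% of the zinc finger promoters and 44.6% of all promoters. TATAAA, the TATA box, was present in 4 of the 131 zinc finger promoters and in 3264 of the 27305 promoters. Of the 6 promoters above, those of ZNF461 and ZNF430 held CCGGAAG and those of ZNF329 and ZNF430 held GGGCGG. The 27305 promoters are of genes of any type, listed or not, and were not matched to the zinc finger promoters in CpG content. Whether other listed genes have similar motif shares was not tested. A match is a string of letters and not a measured binding site.

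Along the chromosome, the genes fell into 17 clusters when a gap of 1 Mb or more between neighbouring start sites set a boundary, and 7 clusters of at least 5 genes held 130 of the 146 genes. Gaps were measured between these 146 listed genes only, so zinc finger genes without a listed peak could leave clusters smaller or split. The largest, from ZNF628 to ZNF446 between 56.0 and 59.0 Mb, held 52 genes, of which 38 were marked in both genotypes, 1 (ZNF329) in JMJD3 KO cells only, 7 in parental cells only and 6 in neither. Its summed promoter width was 33111 bp in JMJD3 KO cells and 55266 bp in parental cells, and its median log2 ratio was -0.53. The cluster from ZNF575 to ZNF296, between 44.0 and 45.6 Mb, held 19 genes with a median of -0.53, and ratios from -2.72 at ZNF224 to 0.33 at ZNF180. The cluster from ZNF175 to ZNF331, between 52.1 and 54.0 Mb, held 15 genes with a median of -0.55 and the widest range, from -2.19 at ZNF766 to 3.05 at ZNF350. Each of these 3 clusters held genes wider and genes narrower in JMJD3 KO cells. So did those from ZNF557 to ZNF846 and from ZNF146 to ZNF573.

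The cluster from ZNF146 to ZNF573, between 36.7 and 38.3 Mb, had the broadest promoters of the 7, with a median among its 14 genes marked in both of 1141.5 bp in JMJD3 KO cells and 2085 bp in parental cells (-0.92). It held 17 genes, of which ZNF585B was marked in JMJD3 KO cells only, ZNF573 in parental cells only and ZNF383 in neither. The clusters from ZNF557 to ZNF846 (7.1 to 9.9 Mb, 12 genes) and from ZNF653 to ZNF791 (11.6 to 12.7 Mb, 10 genes) had medians of -1.14 and -0.91. In the cluster from ZNF430 to ZNF429 (21.2 to 21.7 Mb), 3 of 5 genes were marked in both with a median of -0.54, and ZNF430 and ZNF714 in parental cells only. Medians of the 7 clusters thus ran from -1.14 to -0.53.

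Promoters shared by pairs of zinc finger genes were marked alike by construction. The pairs ZNF490 and ZNF791, ZNF146 and ZNF565, ZNF790 and ZNF345, ZNF571 and ZNF540, and ZNF580 and ZNF581 had promoter peaks in common, 10 genes in all. All 10 were marked in both genotypes and narrower in JMJD3 KO cells, and the other genes marked in both had a median ratio of -0.62. For 23 of the 146 genes the TSS of another listed gene lay within 1 kb.

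The 14 genes with promoter H3K4me3 in neither genotype were in the lists through more distant peaks. Their nearest H3K4me3 peak centre lay between 6082 bp (ZNF625) and 19794 bp (ZNF233) from the TSS, both in JMJD3 KO cells. They included ZNF154, ZNF132 and ZNF577, 3 of the 6 analysed genes from a list of 8 known to be hypermethylated in tumours, where 9.59% of the family and 27.7% of all gene symbols were marked in neither genotype. Of the other genes of that list, ZNF671 was marked in parental cells only, with 720 bp, ZNF331 in JMJD3 KO cells only, with 345 bp, and ZNF582 in both. ZNF671 and ZNF154 are neighbours with start sites 18416 bp apart. ZNF382 and ZNF667 were not analysed here, and of the 4 listed genes known to bind retrotransposons neither were ZNF91, ZNF93 and ZNF765.

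No promoter H3K27me3 peak was listed for any of the 146 genes in either genotype, whereas 4.97% of all gene symbols were marked in JMJD3 KO cells and 5.11% in parental cells. Over all gene symbols 2.6% were marked in JMJD3 KO cells only, 2.74% in parental cells only and 2.37% in both. Among the other genes of chromosome 19, 11 of 1072 were marked in JMJD3 KO cells (1.03%) and 21 in parental cells (1.96%). Both shares lie within the interval of 0 to 2.56% (Wilson 95%) that 0 of 146 genes gives, so the low share was not particular to the zinc finger genes. Among ZNF-numbered genes of other chromosomes 6 of 222 were marked in JMJD3 KO cells and 5 in parental cells. Within the listing limit of 20 kb the family had 2 H3K27me3 peaks in all. One of 594 bp lay 19703 bp from a TSS of ZNF780A in JMJD3 KO cells, from 40616252 to 40616845, and one of 295 bp lay 18813 bp from the TSS of ZNF428 in parental cells, from 44142681 to 44142975. Chromosome 19 as a whole held 25 H3K27me3 peaks in JMJD3 KO cells (0.773% of the list) and 58 in parental cells (1.62%). The antibody label of both H3K27me3 libraries names H3K4me3, so the mark of these lists rests on the sample titles. The lists hold called regions only, so lower levels of the mark were not detectable.

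Some zinc finger genes of chromosome 19 encode products without a KRAB domain. A set of 20 such genes was put together from general knowledge after the values were seen, so its values are given as a description, and it is not compared with the rest of the family. Of these, 15 were marked in both genotypes, with a median ratio of -1.60, 0 were marked in JMJD3 KO cells only, 3 in parental cells only (ZNF507, ZNF444 and ZNF784) and 2 in neither (ZNF358 and ZNF865). Over all gene symbols 61.9% were marked in both, 0.984% in JMJD3 KO cells only, 9.45% in parental cells only and 27.7% in neither. Regions were at least 2-fold narrower in JMJD3 KO cells for 9 of the 15, against 50.6% of all genes marked in both. These counts are too few to set the 20 genes apart. ZNF580 had 889 bp in JMJD3 KO cells and 2698 bp in parental cells, and ZNF524 had 406 bp in JMJD3 KO cells and 1238 bp in parental cells. ZNF580 and ZNF581 share promoter peaks and are not independent of each other. ZNF580, ZNF581, ZNF524, ZNF579, ZNF628, ZNF784, ZNF787, ZNF865 and ZNF444 lie together at the start of the largest cluster, so position and protein type cannot be told apart for them.

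Of 25 genes listed for KAP1 and H3K9 silencing machinery in general, 23 were marked in both genotypes, where 61.9% of all gene symbols were. TRIM28 had 1586 bp in JMJD3 KO cells and 2379 bp in parental cells, and SETDB1 had 990 bp in JMJD3 KO cells and 1305 bp in parental cells. The median ratio of the 23 genes was -0.84, against -1.01 for all genes marked in both. The H3K9 methyltransferase gene SUV39H1 (746 bp) and the remodeller gene CHD3 (1253 bp) were marked in parental cells only. EHMT2, another H3K9 methyltransferase gene, had 504 bp in JMJD3 KO cells and 3364 bp in parental cells (-2.74), and ATRX alone was wider in JMJD3 KO cells, with 280 bp against 167 bp in parental cells (0.75). Promoter H3K27me3 was listed for 0 of the 25 genes, which is near the shares of 4.97% of all gene symbols in JMJD3 KO cells and 5.11% in parental cells. Of 16 listed zinc finger genes of chromosome 19 with other symbols, 8 were in the lists. Among these 5 were marked in both genotypes, with a median of -1.03, and ZFP14 (266 bp) and ZIK1 (185 bp) in parental cells only. Over all gene symbols 61.9% were marked in both and 9.45% in parental cells only, so 5 and 2 of 8 genes are too few to set them apart. MZF1, a myeloid zinc finger factor gene, had 779 bp in JMJD3 KO cells and 2400 bp in parental cells.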

How the data were processed

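ChIP-seq peak lists of H3K4me3 and H3K27me3 from JMJD3 KO and parental HL-60 cells were used, 1 library each; 2 input libraries were not analysed here. Per the submitters' processing notes, the tools were MACS2 2.1.1, SAMtools and BWA 0.7.10, with hg19; the sources used here give no settings for peak calling and do not say whether inputs served as controls. Marks follow the titles, since the antibody label of the H3K27me3 libraries names H3K4me3. Per the file headers, each line deposited by the authors pairs a peak with a RefSeq transcript, a distance and a score. The deposited score is a function of the distance alone (error at most 5e-13) and was not used.

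TSSs were computed as peak centre minus distance, and distinct peaks counted by position. Starts were read as counted from 0, which no source states; printed starts are counted from 1. Summed widths, states and ratios were computed with Python 3.11.15, pandas 2.3.3 and scipy 1.17.1. On simulated data with 2000 genes, the state of 2000 was recovered. Each simulated gene had 1 peak per list and no shared promoter, so this checks the code and not the marking rule. RefSeq promoters of GRCh38.p14 were matched by symbol.

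The genes and lists were chosen with earlier results of these data known. Genes were named by rule: the 8 widest of each single-genotype state, the 8 highest and 8 lowest ratios, the 6 widest, and the listed genes; others are said to have been named after their values were seen. Windows of 1 and 10 kb, peaks spanning the TSS, the nearest gene, lists of equal length (the widest peaks kept), peaks of at least 300 bp and other cluster gaps were tried as alternatives. Precision is limited by the unknown depth and the single libraries. The list of markers of other cells is not reported here.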

Additional observations from a re-analysis of the deposited data

How the results depend on the processing

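The median width ratio of the zinc finger genes stayed negative under all 7 alternatives tried, between -0.86 with peaks of at least 300 bp and -0.62 with lists of equal length or without genes that share promoter peaks. Counting peaks across the TSS alone, 7 genes were marked in both genotypes. Genes marked in JMJD3 KO cells only numbered 3 with a window of 10 kb and 2 with peaks of at least 300 bp, and those marked in parental cells only numbered 36 with peaks of at least 300 bp. Under the other alternatives these counts stayed within 1.5 times of 109, 5 and 18. Counting peaks across the TSS alone, 0 of the 5 and 1 of the 18 genes kept their state. The count of H3K27me3 promoters was 0 under every alternative tried. A gap of 2 Mb gave 9 clusters. With 50% of the peak covered, 74.9% of the JMJD3 KO peaks and 38.4% of the parental peaks overlapped.

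Of 35 named genes, the width difference had the opposite sign at ZNF180 (-39 bp) and ZNF548 (-102 bp) within 1 kb, at ZNF548 with peaks of at least 300 bp (-705 bp), at ZNF526 with peaks across the TSS alone (291 bp), and at ZNF77 within 10 kb (-178 bp). Apart from these changes of sign, the state changed for 32 of the 35 with peaks across the TSS alone and for 16 with peaks of at least 300 bp. It changed for 5 within 1 kb and for 3 within 10 kb. Counting peaks for their nearest gene changed the state of 0 of the 35, and lists of equal length changed 2 (ZNF461 and ZNF846, then marked in JMJD3 KO cells only, since their narrow parental peaks drop out). The cause of the other changes was not tested. No paired analysis was possible because each genotype and mark has 1 library. Unknown depth limits every absence reported here.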
